A study of Mus musculus with 3 samples.

Results

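The 6 mouse Iroquois genes lie in 2 clusters, Irx1, Irx2 and Irx4 on chromosome 13 and Irx3, Irx5 and Irx6 on chromosome 8, and the regions enriched for NKX2-5 around them in the E11.5 embryonic heart are described here. Members are the peaks of each library that lay within the span of a cluster (GENCODE M1, mm9) extended by 200 kb on each side. The windows were chr13:71895680-73607068 (1.711 Mb) and chr8:94122428-95404855 (1.282 Mb). They held 10 of 4418 peaks of the library named S1 and 15 of 5441 peaks of the library named S4, a mean of 12.5 ± 3.54 (SD, n = 2 libraries). The study sequenced 2 ChIP libraries, made from fixed E11.5 hearts of Parkes mice with an antibody against NKX2-5 (N-19), and 1 Input library from hearts of that strain and stage. The labels name no treatment or mutant among them, and a whole heart mixes myocardium with its other cell types. The Input library was not analysed here. A peak is an interval called in 1 library, and its score, given by the peak caller, is a p-value on a negative log10 scale multiplied by 10. Read numbers were not used, so the depth is unknown, and a higher score in 1 library cannot be told apart from deeper sequencing. There was 1 condition, so no test between groups was possible, and nothing shows that the duplicate libraries came from separate pools of hearts.

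Iroquois proteins are homeodomain transcription factors of the TALE class, which also holds the MEIS and PBX factors. In the heart, Irx4 is known as a gene of the ventricular myocardium, Irx3 as a gene of the trabecular and conducting myocardium, and Irx5 as a gene needed for the gradient of repolarisation across the ventricular wall. Irx1 and Irx2 are expressed in the ventricular septum, and Irx6 is the least studied of the family in this tissue. The clusters arose by duplication of an ancestral group, and in each of them the first pair of genes points in opposite directions (Irx1 and Irx2, Irx3 and Irx5) while the third gene (Irx4, Irx6) follows its neighbour on the same strand. NKX2-5 is itself a homeodomain factor of the cardiac lineage, bound to sequences with the core AAGTG.

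Both libraries had a peak at 8 places in the windows, hereafter shared regions, 4 in each cluster. The sequences are shown because they are where NKX2-5 was enriched in both libraries, in order of rank. Each line gives 200 bases of the mm9 plus strand centred on the stretch covered by both peaks, with matches on either strand to the NKX2-5 core AAGTG, its longer form TNAAGTG, the MEIS1 core TGACA or the spaced pair GTGNTGACA in capitals. The spaced pair holds the last 3 letters of the NKX2-5 core, 1 free base and the MEIS1 core, so it need not contain AAGTG.
33.8 kb upstream of Irx5 (chr8:94847771-94847970): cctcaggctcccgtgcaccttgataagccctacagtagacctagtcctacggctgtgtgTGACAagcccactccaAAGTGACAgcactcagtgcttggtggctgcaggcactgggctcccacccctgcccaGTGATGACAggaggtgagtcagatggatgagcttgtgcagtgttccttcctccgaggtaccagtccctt
38.5 kb downstream of Irx4 (chr13:73436332-73436531): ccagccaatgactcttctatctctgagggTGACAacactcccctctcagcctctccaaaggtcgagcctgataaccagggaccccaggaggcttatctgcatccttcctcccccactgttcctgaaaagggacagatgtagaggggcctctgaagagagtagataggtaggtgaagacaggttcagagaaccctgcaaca
209 kb upstream of Irx2 (chr13:72557094-72557293): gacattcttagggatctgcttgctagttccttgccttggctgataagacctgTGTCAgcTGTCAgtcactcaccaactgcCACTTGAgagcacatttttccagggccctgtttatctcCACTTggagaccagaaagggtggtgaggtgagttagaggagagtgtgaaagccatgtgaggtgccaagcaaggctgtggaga
186 kb upstream of Irx3 (chr8:94511934-94512133): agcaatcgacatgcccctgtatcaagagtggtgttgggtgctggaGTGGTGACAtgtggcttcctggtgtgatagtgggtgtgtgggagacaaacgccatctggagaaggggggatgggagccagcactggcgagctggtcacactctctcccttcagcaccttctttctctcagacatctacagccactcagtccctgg
258 kb upstream of Irx2 (chr13:72508533-72508732): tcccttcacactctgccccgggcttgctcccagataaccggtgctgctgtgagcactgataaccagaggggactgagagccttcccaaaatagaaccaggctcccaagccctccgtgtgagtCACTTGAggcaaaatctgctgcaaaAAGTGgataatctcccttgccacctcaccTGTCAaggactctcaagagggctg
176 kb downstream of Irx3, in Fto (chr8:94149764-94149963): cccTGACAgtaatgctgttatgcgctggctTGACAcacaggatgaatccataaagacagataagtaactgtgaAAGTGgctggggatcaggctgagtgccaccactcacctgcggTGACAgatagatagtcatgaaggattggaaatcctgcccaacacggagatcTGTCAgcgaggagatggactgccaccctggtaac
170 kb upstream of Irx1 (chr13:72271550-72271749): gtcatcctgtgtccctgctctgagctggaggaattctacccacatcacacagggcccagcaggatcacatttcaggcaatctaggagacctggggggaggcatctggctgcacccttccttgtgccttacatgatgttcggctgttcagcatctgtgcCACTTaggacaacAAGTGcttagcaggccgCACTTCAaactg
166 kb upstream of Irx3 (chr8:94491398-94491597): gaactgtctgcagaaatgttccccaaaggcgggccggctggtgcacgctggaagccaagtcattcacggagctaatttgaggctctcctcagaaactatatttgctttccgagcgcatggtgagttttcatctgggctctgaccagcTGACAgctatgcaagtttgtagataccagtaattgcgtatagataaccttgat

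None of the 8 shared regions lay within 1 kb of an annotated transcript start, against 17.0% of all 2546 shared regions of the genome. With 8 regions, such a count does not set the windows apart from the genome. In S4 a peak without a partner lay 1.07 kb from the Irx4 start, just beyond this limit. The distance to the nearest protein-coding start had a median of 125 kb in the windows and 41.2 kb over all shared regions, and it exceeded 100 kb at 4 of the 8 regions, against 28.4% of all. Per megabase, the windows held 3.34 peaks of S1, 5.01 peaks of S4 and 2.67 shared regions, and the 20 chromosomes with peaks held 1.67, 2.06 and 0.965. These are descriptions, since neighbouring peaks are not independent and only 2 windows were counted. Besides the members, the windows held 4 (chromosome 13) and 6 (chromosome 8) coding genes. Whether the spacing of genes accounts for the distances was not tested.

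**Figure D1:**
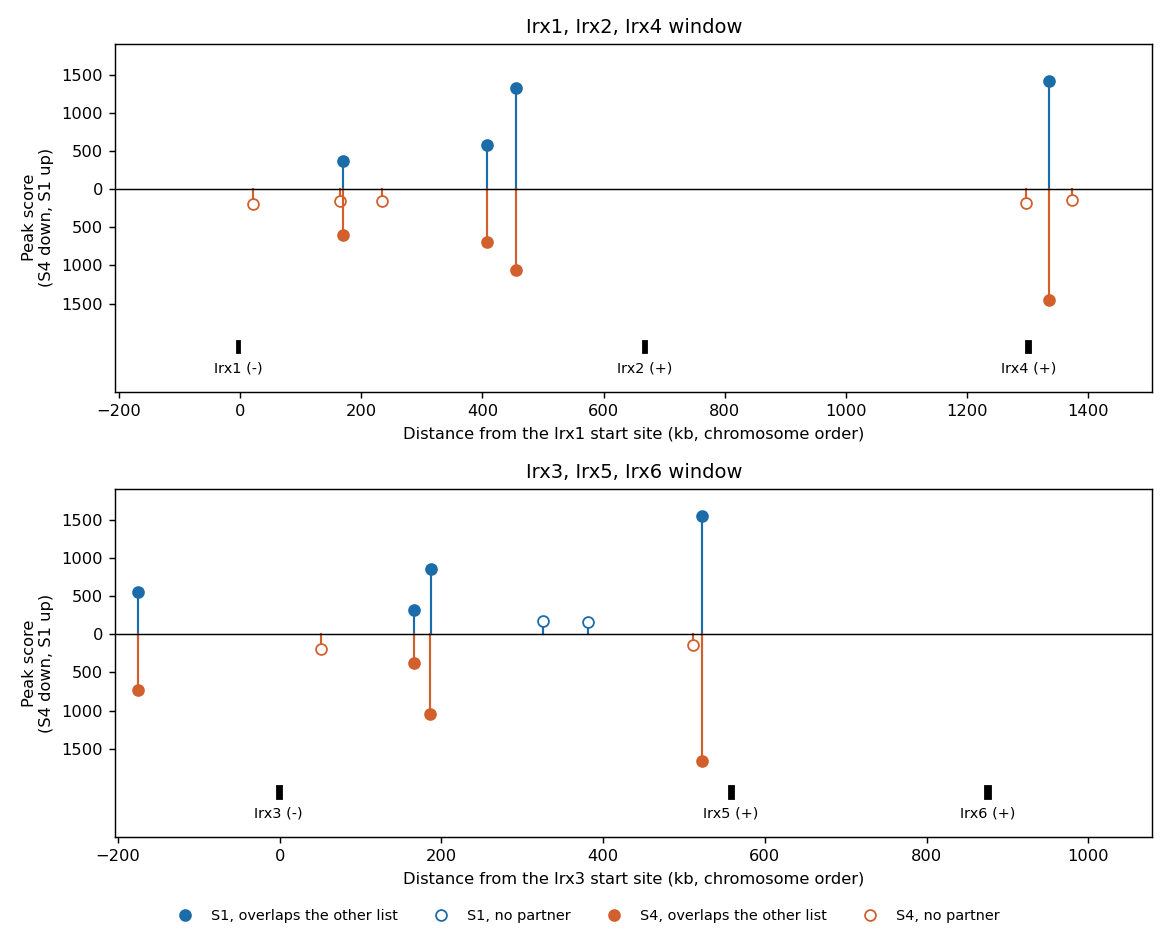
Peaks of the 2 Iroquois windows by distance from the start of Irx1 (top) or Irx3 (bottom), with the score drawn upwards for S1 and downwards for S4; filled points overlap a peak of the other list, open points do not, and black bars are the Iroquois genes with their strand. Filled points come in pairs at 8 places, and no point of either list lies between Irx2 and Irx4 (top) or to the right of Irx5 (bottom).

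The shared regions are described by the interval between genes that held them. The interval between the divergent genes Irx1 and Irx2 (665 kb, 38.9% of its window) held 3 of the 4 shared regions of that cluster. The matching interval between Irx3 and Irx5 (556 kb, 43.4% of its window) held 3 of 4. With 4 regions in each cluster these counts are descriptions, and their spread was not tested. The interval from Irx2 to Irx4 (626 kb) and that from Irx5 to Irx6 (313 kb) held no peak of either list. The remaining regions lay on opposite sides of their clusters, 1 beyond Irx4 and 1 beyond Irx3. Counted from the last peak before to the first peak after, the stretch without peaks ran for 841 kb around Irx2 (chr13:72557608-73398696) and for 618 kb around Irx5 and Irx6 (chr8:94848286-95466291).

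Irx5 (chr8:94881695-94885351, plus strand), whose protein represses the potassium channel gene Kcnd2 in ventricular muscle, had the highest-scoring region of the windows. The region was chr8:94847520-94848223, 33.8 kb upstream of the start, in intergenic sequence. The S1 peak scored 1549.6 and ranked 55 in its list, and the S4 peak scored 1658.8 and ranked 67. By the worse of both ranks it was number 39 of the 2546 shared regions. The coding gene 4933436C20Rik (chr8:94849937-94880019, minus strand) lies between the region and Irx5, and its start, 32.1 kb away, was the nearest coding start. In S4 a second peak of score 145 lay 45.4 kb upstream of Irx5 and had no partner.

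Irx3 (chr8:94322428-94325553, minus strand) was the member with most shared regions around it, with 3 within 200 kb of its span, a number reached by 5.49% of the 22380 annotated protein-coding genes. A pair of them lay 20.5 kb apart upstream of the gene, on the side that faces Irx5. The farther one, chr8:94511726-94512342, scored 860 in S1 and 1038.9 in S4, within the 200 highest-scoring peaks of each list (ranks 199 and 196). The nearer one, chr8:94491199-94491797, was the weakest shared region of the windows, with scores of 315 and 382. The third, chr8:94149397-94150332, lay 176 kb downstream of Irx3 in an intron of Fto and of the noncoding transcript Gm3235, and scored 556 in S1 and 725 in S4. The S4 peak nearest to the Irx3 start, 50.8 kb upstream, scored 190 and had no partner. The S1 peaks without a partner lay farther along the same interval, 230 kb (score 180) and 174 kb (score 158) upstream of Irx5. Fto encodes an RNA demethylase, and its introns are known to hold sequences that act on Irx3. The region 176 kb downstream of Irx3 lay 312 kb from the Fto start, and whether it is among those sequences was not tested. A further shared pair in Fto (scores 401 in S1 and 157 in S4) ended 44.5 kb before the window in S1 and 44.7 kb before it in S4, and was therefore no member. The other coding genes of this window, 4933436C20Rik, Gm3272, Gm17310, Mmp2 and Lpcat2, held no peak midpoint of either list.

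Irx4 (chr13:73397945-73407068, plus strand) had the second-ranked region, chr13:73435944-73436920, 38.5 kb downstream of its start. Its scores were close, 1421.8 in S1 (rank 67) and 1457.8 in S4 (rank 95). The starts of Ndufs6, a subunit gene of respiratory complex I, and Mrpl36, a mitochondrial ribosomal protein gene, were nearer, at 29.6 kb and 32 kb. Irx4 was also the only member with a peak inside its gene. This peak, chr13:73398697-73399332, was called in S4 with a score of 178, had its midpoint in an intron 1.07 kb from the start, and had no partner in S1. It is shown because it was the peak closest to the start of any member.
Intron of Irx4, S4 only (chr13:73398914-73399113, plus strand, NKX2-5 core in capitals): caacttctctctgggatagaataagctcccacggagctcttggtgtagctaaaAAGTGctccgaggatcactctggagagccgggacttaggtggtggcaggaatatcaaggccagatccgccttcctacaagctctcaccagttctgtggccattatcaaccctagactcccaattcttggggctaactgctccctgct

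Irx1 (chr13:72095680-72101171, minus strand) and Irx2 (chr13:72766245-72771644, plus strand) flank the interval with 3 regions. The strongest, chr13:72556809-72557580, lay 209 kb upstream of Irx2 and 456 kb from Irx1, with scores of 1325.8 in S1 (rank 80) and 1057.6 in S4 (rank 189). It was the only shared region of the windows with the higher score in S1. The next, chr13:72508137-72509130, lay 48.6 kb from it and 258 kb upstream of Irx2, and scored 572 and 696. A processed gene, Rpl9-ps4, annotated as protein-coding in GENCODE M1, was the coding gene nearest to both. The region closest to Irx1, chr13:72271245-72272055, lay 170 kb upstream of it. It scored 365 in S1 and 600 in S4, the widest gap between the libraries as a ratio (log2 of 0.72). It was the S1 peak nearest to the Irx1 start, while S4 had a nearer one of score 189, 22 kb upstream, with no partner. A further shared pair lay 145 kb before the window and scored 254 (S1) and 249 (S4). The other coding genes of this window, Rpl9-ps4, Ndufs6, Mrpl36 and Lpcat1, held no peak midpoint of either list.

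Irx6 (chr8:95198188-95204855, plus strand) had no peak within 200 kb of its span in either list. The nearest shared region was the one upstream of Irx5, 350 kb away, and the nearest S4 peak (score 157, no partner) lay 268 kb downstream, outside the window. Counted by member, a shared region within 200 kb of the gene span was present for 4 of 6 genes (1 for Irx1, 3 for Irx3, 1 for Irx4 and 1 for Irx5), against 37.6% of all protein-coding genes. Irx2 and Irx6 had 0. For Irx2 this turned on the limit, since its nearest shared region lay 209 kb away. Within 100 kb, or within 50 kb, 2 of the 6 genes had a shared region, against 24.2% and 15.7% of coding genes. Neighbouring members are not independent in this count.

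In the windows, peaks scoring at least 200 had a partner in the other library and those under 200 had none. Of the S1 window peaks, 8 of 10 had a partner in S4, with 1 bp or more in common (80.0%, with a 95% exact Clopper-Pearson interval of 44.4 to 97.5 that covers counting error alone), against 58.9% of the whole S1 list. Of the S4 window peaks, 8 of 15 overlapped an S1 peak (53.3%, 26.6 to 78.7), against 47.0% of the whole S4 list. Both genome-wide shares lie within these intervals, which are wide because few peaks were counted. The 8 overlapping peaks scored 315 to 1549.6 in S1 and 382 to 1658.8 in S4. The peaks without a partner scored 158 and 180 in S1 and 142 to 190 in S4, so the scores of the peaks with and without a partner did not overlap in either library.

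Over the whole lists, too, peaks of higher score were shared more often. Among window peaks that scored at least 200, 8 of 8 overlapped in each direction (63.1 to 100%), against 78.9% of such peaks in S1 and 64.0% in S4. Under 200, 0 of 2 S1 peaks (0 to 84.2%) and 0 of 7 S4 peaks (0 to 41.0%) overlapped, against 35.6% and 23.0% over the lists. The genome-wide share lay within the interval in each of these comparisons. The intervals rest on few peaks, which are not independent, so this is a description and no test.

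**Figure D2:**
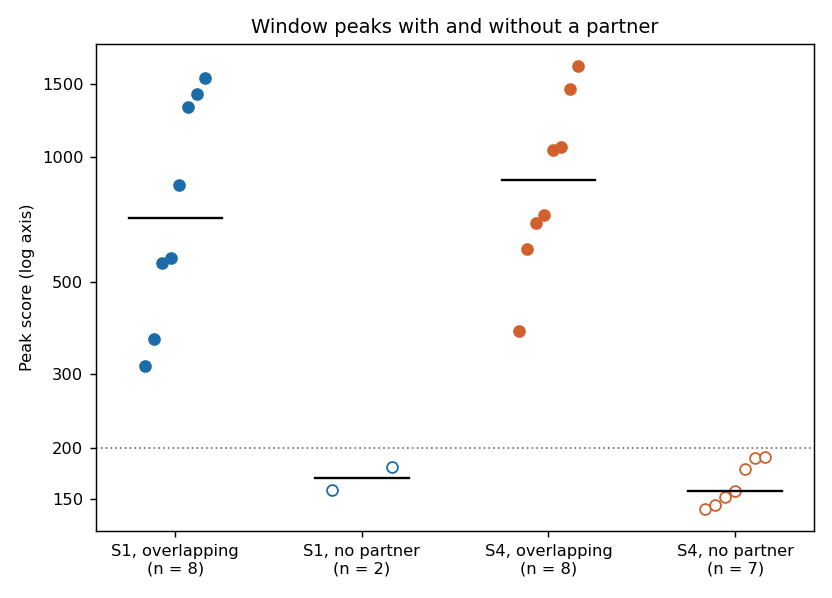
Score of each window peak on a log axis, by library and by whether it overlapped a peak of the other list; points are peaks, black lines are medians and the dotted line marks a score of 200. Every overlapping peak lies above the line, at 315 or more, and every peak without a partner lies below it, at 190 or less.

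Scores of the shared regions ranked alike in the libraries. S4 was higher at 7 of 8, and at 1543 of all 2546, with a median log2 ratio of S4 to S1 of 0.27 (range -0.33 to 0.72), against a median of 0.16 over all shared regions. All 8 pairs were within 2-fold of each other, as were 85.7% of all pairs. Spearman's rho across the 8 regions was 0.976, against 0.636 across all 2546. The regions of a library share its depth, and the 8 are not independent replicates, so rho is a description. The 8 also scored higher than most shared regions, so the values of rho do not compare like sets. Of the 8, 4 were among the 200 highest-scoring peaks of both lists (Irx5, Irx4, the stronger region upstream of Irx2 and the stronger upstream of Irx3), against 5.50% of all shared regions. The median score of the shared regions was 716 in S1 and 882 in S4 in the windows, and 280 and 315 over the genome.

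**Figure D3:**
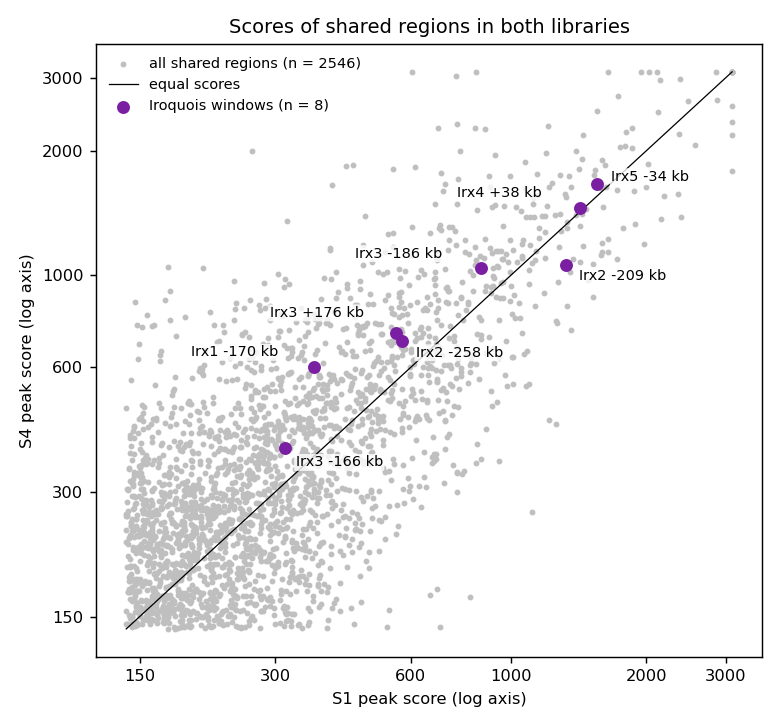
Score in S1 against score in S4, both on log axes, for all 2546 shared regions (grey) and the 8 of the Iroquois windows (purple, named by the nearest member and the distance from its start, minus for upstream). All 8 sit above the genome-wide medians of 280 in S1 and 315 in S4, and 7 lie above the line of equal scores.

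The positions of paired peaks were compared as well. The overlap covered 74.7 to 100% of the S1 peak and 65.8 to 100% of the S4 peak, and midpoints of paired peaks differed by 41 bp to 192 bp, with 5 of 8 pairs within 150 bp. Overlapping peaks were wider than those without a partner, with a median width of 861 bp (S1) and 1047.5 bp (S4), where those without one had a median of 628 bp in each library. Over all peaks the median width was 625 bp in S1 and 783 bp in S4. In the windows the overlapping peaks were also those of higher score, so a link of width to overlap cannot be told apart from one to score.

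The study asked which motifs lie under NKX2-5 peaks. It scored motif matrices within 25 bp of peak summits, and found its NKX2-5 and MEIS1 hybrid motif in more regions than its conventional NKX2-5 motif. Here the 8 regions were searched on both strands for exact matches within 100 bp of the midpoint of the shared stretch. The measure, the centre and the width differ, so the shares below cannot be set against those of the study. AAGTG was present in 5 of 8, against 64.0% of all shared regions, and TGACA in 7 of 8, against 64.3%. In windows 2 kb to either side of the 8 regions, AAGTG was found in 4 of 16 (39.4% of all 5092 flanks) and TGACA in 9 of 16 (40.1% of all flanks). The longer NKX2-5 core TNAAGTG, which contains AAGTG, was present in 3 of 8 (32.4% of all), and in 0 of 16 flanking windows (11.4% of all flanks). The spaced pair GTGNTGACA, which contains TGACA, was present in 2 of 8 (9.47% of all), and in 0 of 16 flanking windows (0.864% of all flanks). Either of these 2 longer forms was present in 5 of 8 regions, against 39.0% of all.

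Within 100 bp of the midpoint, the longer forms fell on different clusters among the 8 shared regions. An S4 peak without a partner on chromosome 13, described below, held both forms. TNAAGTG was found in the 3 regions between Irx1 and Irx2 and in none of the chromosome 8 regions. Its matches began 88 bp after the midpoint in the region nearest Irx1, and 22 bp after and 20 bp before it in the regions 258 kb and 209 kb upstream of Irx2. GTGNTGACA was found in 2 regions between Irx3 and Irx5, at 186 kb upstream of Irx3 and at 33.8 kb upstream of Irx5. Over the whole stretch covered by both peaks, 599 bp to 994 bp long, TNAAGTG was present in 7 of 8 regions and GTGNTGACA in 2. Within 25 bp of the midpoint, TNAAGTG was left in 1 region and GTGNTGACA in 0, so the split in TNAAGTG depended on the width searched. With 8 regions no test of this split was made.

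The region upstream of Irx5 held GTGATGACA 31 bp after the midpoint, and it was the only one of the 8 with AAGTGACA, in which the NKX2-5 and MEIS1 cores overlap by 2 bases, 25 bp before the midpoint. AAGTGACA was present in 2.44% of all shared regions. The second-ranked region, downstream of Irx4, had neither AAGTG nor either longer form within 100 bp, and 1 match to TGACA 71 bp before the midpoint. Over its whole stretch of 977 bp it held 4 matches to AAGTG and 5 to TGACA. The midpoints of its S1 and S4 peaks lay 163 bp apart. No summits were used, so the bound site within the stretch is not known.

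**Figure D4:**
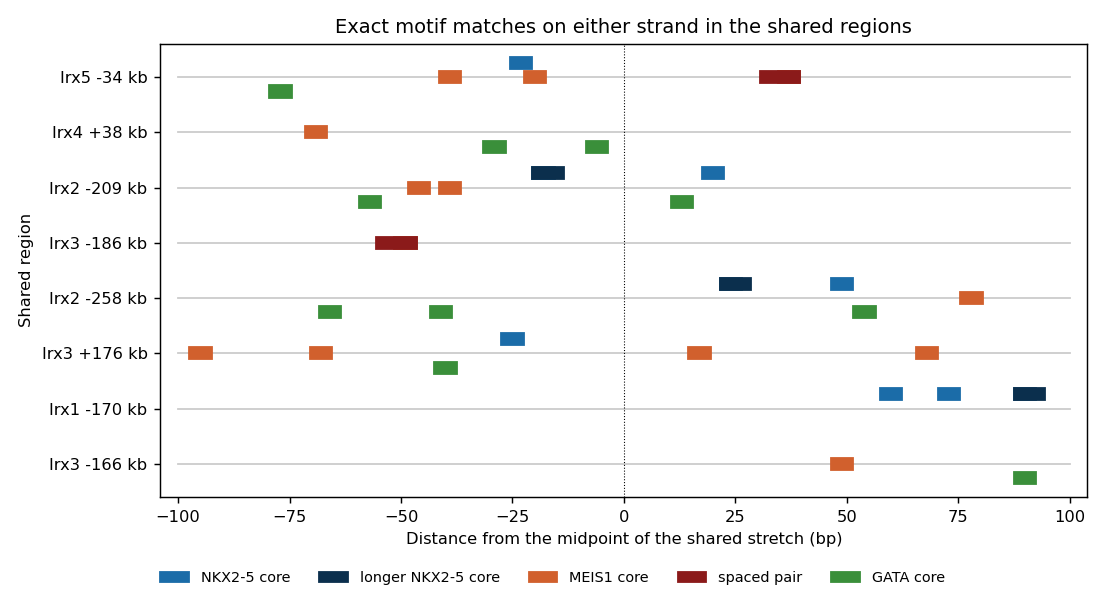
Exact matches on either strand within 100 bp of the midpoint of the 8 shared regions, ordered by rank from the top; bars are the NKX2-5 core AAGTG and its longer form (blue), the MEIS1 core TGACA (orange), the spaced pair GTGNTGACA (red) and GATAA (green). The longer NKX2-5 form appears in 3 regions and the spaced pair in 2.

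GATAA, the core read by GATA factors, was added after the sequences had been read. It was present in 6 of 8 regions, with 3 matches in the region 258 kb upstream of Irx2 and 2 each in the region 209 kb upstream of Irx2 and in that downstream of Irx4, against 35.0% of all shared regions. In the flanking windows it was present in 6 of 16, against 26.3% of all flanks. GGTGTG, a core of T-box factors also added then, was present in 1 of 8, with 2 matches in the region 186 kb upstream of Irx3, against 14.1% of all. The share of G and C within 100 bp of the midpoint ran from 48.8% to 58.2%, and the median of all shared regions was 49.8%.

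The peaks without a partner were searched in the same way. TNAAGTG or GTGNTGACA lay within 100 bp of the peak midpoint in 0 of 2 such peaks of S1 and 1 of 7 of S4, against 29.6% and 26.6% of all peaks without a partner. The 1 was chr13:73474021-73474634, 76.4 kb downstream of the Irx4 start, which had the lowest score of the windows (142) and held 1 match to TNAAGTG and 2 to GTGNTGACA. The peak in the Irx4 intron held AAGTG once and TGACA not at all.

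Sequence was compared between the clusters because they are duplicates of each other. Over the stretches covered by both peaks, the longest exact run in common, on either strand, was 9 to 52 bases in the 16 pairs of regions from different clusters (median 10.5) and 10 to 13 bases in the 12 pairs from the same cluster. The run of 52 bases was a repeat of C and A shared by the region downstream of Irx4 and that in Fto. Without runs made of fewer than 3 kinds of base, the longest was 14 bases between and 13 within clusters. Unrelated stretches were not compared, so these runs cannot be read as a trace of the duplication.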

How the data were processed

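NKX2-5 ChIP libraries (S1 and S4) and 1 Input library of E11.5 hearts were taken from the labels. Per the methods of the study and the submitters' processing notes, sequencing used the Genome Analyzer IIx, CASAVA 1.4 is listed, the reads were placed on mm9 by BOWTIE, and MACS 1.4 called the peaks, deposited as 1 list per ChIP library. Settings, the version of BOWTIE and the use of Input as control are not given in the sources used here. The deposited score was read as a p-value from MACS on a negative log10 scale, multiplied by 10, is not scaled between libraries, and ran from 140 to 3100. The deposited positions are other values, in bp. Depth is unknown.

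Every coordinate lay within NCBIM37, which is mm9. Positions are counted from 1. Members were peaks wholly inside a window. Peaks overlapping by at least 1 bp were shared, and pairs with a peak in common were merged. A distance runs from a midpoint to the nearest transcript start. No test was run, and intervals are exact Clopper-Pearson intervals. The members and lists were chosen with earlier results of these data known. All 6 genes, all shared regions, the nearest peaks to each start and the best peaks without a partner were to be named. Some genes of the lists are not reported here by name. The alternatives were a minimum score of 200, extensions of 100 kb and 500 kb, other definitions of overlap, lists of equal length, single libraries, other motif windows and other distances to genes. The procedures were checked on simulated data. Python 3.11.15, numpy 2.4.6, pandas 2.3.3, scipy 1.17.1 and matplotlib 3.10.9 were used.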

Additional observations from a re-analysis of the deposited data

How the results depend on the processing

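Of 47 alternatives, 31 left a value within its limits (1.5-fold for a count, the interval for a share, 1 SD for the mean) and 16 moved it. Requiring a score of 200 or more left 8 peaks in S4 and a mean of 8 per library, kept 8 shared regions and raised both shares to 100%, since the filter removed every window peak without a partner. Leaving out S1 or S4 gave 15 and 10 peaks against the mean of 12.5. With 2 libraries either value always lies within 1 SD of the mean, so these alternatives could not move it. Midpoints within 150 bp left 5 shared regions. Windows extended by 100 kb or 500 kb gave 7 and 10 shared regions. Members with a shared region nearby fell from 4 to 2 within 100 kb and to 2 within 50 kb, where 24.2% and 15.7% of all coding genes had one, and TALE genes fell from 7 to 4 within 50 kb, a distance chosen after seeing the data. With 25 bp on each side, TNAAGTG was present in 1 region, AAGTG in 2, TGACA in 2 and GTGNTGACA in 0. In the whole shared stretch, TNAAGTG was present in 7 and AAGTG in 8. No paired analysis was possible because there is 1 group. The unknown depth limits every statement on peaks near the lowest score, and 8 regions limit every share.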

Other observations

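The genes that Iroquois factors are known to act on or with in the heart were counted beside the clusters. A shared region lay within 200 kb of the gene span for 8 of 10, with a median of 1.5 regions, against 37.6% of all protein-coding genes with a median of 0. Nppa, the atrial natriuretic peptide gene, had 5, Rxra, a nuclear receptor gene, had 3, and Vdr, the vitamin D receptor gene, and Myl7, an atrial myosin light chain gene, had 2 each. Kcnd2, the potassium channel gene repressed by Irx5, Smyd1, a muscle methyltransferase gene, and Gja5, a connexin gene of the conduction system, had 1 each. Gja1 and Kcnip2 had 0 within this limit. The study, which assigned genes over longer distances, tested an NKX2-5 region that it named by the Gja1 and Hsf2 loci. The number of regions near Nppa was reached by 0.831% of coding genes. The list is of well-studied heart genes, and no test was made of it.

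Among 12 other genes of the TALE class, 7 had a shared region within 200 kb, with a median of 1, beside the same 37.6% and median of 0 over all protein-coding genes. Meis2 and Pbx4 had 3 each, as Irx3 did, Tgif2 had 2, and Meis1, Pknox1 and Tgif1 had 1 each. Meis3, Mkx, Pbx2, Pbx3 and Pknox2 had 0.

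The region downstream of Irx4 ranked 67 and 95 in the lists without AAGTG within 100 bp of its midpoint. Over its whole stretch it held 4 matches. The lowest-scoring S4 peak of the windows, 76.4 kb downstream of the same gene, held 3 matches to the longer motif forms.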
